A study of Mus musculus with 60 samples.

Results

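The genes for the protein parts of the mitochondrial ribosome were followed through 60 mouse RNA-seq libraries of brown and white fat. A gene was taken as a member when its symbol, looked up from the Ensembl identifier, was Mrpl or Mrps followed by a digit, and when it was not a pseudogene. This gave 78 genes of the 22893 that appeared in any of the 5 deposited tables, 49 named for the large subunit (Mrpl) and 29 for the small subunit (Mrps). All 78 were present in all 5 tables and passed the filter on low values in each (a highest group mean of at least 4 on the log2 scale). The pseudogenes Mrpl23-ps1, Mrpl48-ps and Mrps36-ps1 were left out.

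The libraries came from 3 experiments in 18 groups. The first followed B9 cells, an immortalized brown preadipocyte line, and pBAT and pWAT cells, primary brown and white preadipocytes taken from newborn pups. All were wild type and were differentiated into adipocytes, with 3 libraries at each of days 0, 2, 4 and 6. The second used wild-type pBAT cells differentiated with Vehicle, with SA (succinylacetone, an inhibitor of heme synthesis) at 1 mM, with HA (heme-arginate, a source of heme) at 10 µM, or with both (HASA), in 4 libraries each; the labels do not give the day of harvest. The third compared brown adipose tissue of female mice, 4 WT and 4 BAKO, in which Alas1, the first enzyme of heme synthesis, is deleted in brown adipocytes; each library came from its own animal, and the age is not given. B9 is 1 line, and the labels do not say that the culture replicates were separate cultures, so p-values in the first 2 experiments measure the spread between these libraries. The deposited values are on a log2 scale with no read counts behind them, so the depth of each library is unknown.

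The mitochondrial ribosome makes the 13 proteins encoded in the mitochondrial genome, all of them core subunits of the respiratory chain and ATP synthase. Its RNAs are encoded in the mitochondrion, but its proteins are encoded in the nucleus, translated in the cytosol and imported. Brown adipocytes are rich in mitochondria, and their differentiation builds the respiratory chain that burns fuel when the uncoupling protein Ucp1 is active. A few members have roles or places that their names do not show. Mrps18a and Mrps30 are known in mammals as proteins of the large subunit, Mrps36 as a part of the 2-oxoglutarate dehydrogenase complex, Mrpl12 also as a binder of the mitochondrial RNA polymerase, and Mrpl58 also as a peptidyl-tRNA hydrolase.

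Alas1, the gene deleted in BAKO, and marker genes were read against the labels of the libraries. Alas1 ran from 12.73 to 12.97 (log2 value) in WT and from 10.15 to 10.61 in BAKO tissue. In the treated cultures it was at 12.38 to 12.51 with Vehicle, 13.63 to 13.78 with SA, 12 to 12.19 with HA and 12.41 to 12.58 with HASA. Adipocyte markers rose from day 0 to day 6 in all 3 cell types (6 of 6 in each). Brown adipocyte markers rose in B9 and pBAT cells (5 of 5 each), whereas in pWAT cells 3 of 5 passed the filter and rose, and Ucp1 and Cidea stayed under a group mean of 4.

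The promoters of the genes are shown first, because promoters of this family are known for binding sites of the factors NRF1, GABPA and YY1, which also serve respiratory chain genes. RefSeq promoters (GRCm38.p6, 300 bases that span each gene's start and lie mostly before it) were matched by symbol for 69 of the 78 members. The letters searched on both strands were GCGCANGCG for NRF1, CCGGAAG for the ETS family to which GABPA belongs, AAGATGGC for YY1, CCAAT for the CCAAT box and CACGTG for the E-box; none of these sets of letters lies inside another. NRF1 letters were in 16 of the 69 (23.2%), against 6.47% of all 27025 RefSeq promoters and 14.1% of the promoters of genes tested in the treatment experiment. ETS letters were in 25 (36.2%, against 9.12% and 18.5%) and YY1 letters in 12 (17.4%, against 2.88% and 4.78%). The CCAAT box was in 39.1% of the members and 37.9% of all promoters, and the E-box in 7.25% and 7.24%. Of the 69 promoters, 26 held none of the first 3 sets of letters, 33 held 1 and 10 held 2. A match says only that the letters are in the window.

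Promoters of 4 members are printed, chosen after their values were seen: Mrpl12 and Mrpl1 had the largest rises in both primary cell types, Mrpl52 fell in all 3 cell types, and the effect of SA on Mrps18b differed with HA. Each is written 5′ to 3′ along its gene. Capitals mark matches, here all to the reverse complement of the letters searched: NRF1 once in Mrpl12 and first in Mrps18b, ETS in both places in Mrpl52 and second in Mrps18b. Mrpl1 has none of the first 3 sets.
Mrpl12, chr11:120484387-120484686, plus strand: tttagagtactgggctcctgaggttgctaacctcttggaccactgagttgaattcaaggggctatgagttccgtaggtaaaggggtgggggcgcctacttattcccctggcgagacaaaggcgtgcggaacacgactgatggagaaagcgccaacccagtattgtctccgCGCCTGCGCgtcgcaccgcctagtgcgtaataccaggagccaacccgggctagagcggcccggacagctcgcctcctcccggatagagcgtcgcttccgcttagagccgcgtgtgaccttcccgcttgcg
Mrpl1, chr5:96209865-96210164, plus strand: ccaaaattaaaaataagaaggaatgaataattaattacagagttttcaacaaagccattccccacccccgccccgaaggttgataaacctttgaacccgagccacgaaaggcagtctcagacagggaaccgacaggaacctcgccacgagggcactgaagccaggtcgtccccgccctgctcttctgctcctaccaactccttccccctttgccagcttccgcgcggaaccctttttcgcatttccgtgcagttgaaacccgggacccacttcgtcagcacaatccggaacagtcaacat
Mrpl52, chr14:54426659-54426958, plus strand: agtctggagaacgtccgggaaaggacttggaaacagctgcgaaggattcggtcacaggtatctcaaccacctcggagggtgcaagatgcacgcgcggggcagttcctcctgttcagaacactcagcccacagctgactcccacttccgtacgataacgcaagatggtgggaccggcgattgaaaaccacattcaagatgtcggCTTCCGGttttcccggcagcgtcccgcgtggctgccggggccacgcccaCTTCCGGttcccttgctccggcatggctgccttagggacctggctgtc
Mrps18b, chr17:35916391-35916690, minus strand: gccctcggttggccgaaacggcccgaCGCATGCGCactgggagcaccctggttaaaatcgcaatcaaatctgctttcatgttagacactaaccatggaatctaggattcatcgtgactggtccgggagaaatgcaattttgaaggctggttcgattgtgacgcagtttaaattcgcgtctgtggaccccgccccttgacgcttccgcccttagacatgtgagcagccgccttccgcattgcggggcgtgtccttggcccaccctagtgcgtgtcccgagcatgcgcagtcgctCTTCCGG

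In pBAT cells, mitochondrial ribosomal protein genes rose almost as a block. From day 0 to day 6, 71 of the 78 were higher and 1 was lower, against 38.3% higher and 39.2% lower among all 13144 genes tested. The median change of the members was 0.95 on the log2 scale (1.93-fold), and that of all genes was -0.005. Most of the rise had come by day 2, with 70 members higher (36.7% of all genes) and 2 lower (29.7%), at a median change of 0.77. From day 2 to day 4 another step followed, with 45 higher (32.2%) and 4 lower (31.6%) at a median of 0.27. From day 4 to day 6 the members stood near level, with 7 higher (19.8%), 19 lower (23.2%) and a median of -0.02. Calls here and below are limma's, at a Benjamini-Hochberg adjusted p under 0.05 over all genes of the table.

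B9 cells had a rise and a partial return. Members were higher by day 2 (56 higher, 6 lower, median 0.34; 35.1% and 34% of all genes) and again by day 4 (60 higher, 0 lower, median 0.50; 30.6% and 28.7%). From day 4 to day 6, 54 members fell and 2 rose, at a median of -0.30, against 26.8% and 26.6% of all genes. Of the 78, 40 rose from day 2 to day 4 and then fell from day 4 to day 6, and 63 had their highest group mean at day 4. Both steps use the same day 4 libraries, and no share of all genes is given beside these 2 counts. At day 6, 64 members remained higher than at day 0 and 2 were lower (40.5% and 38.8% of all genes), with a median of 0.44. The falls with the largest change from day 4 to day 6 were Mrpl11 at -0.80 (SE 0.0861) and Mrpl20 at -0.77 (SE 0.0713), both proteins of the large subunit; Mrpl14 and Mrpl24 were the 2 that rose, by 0.38 each.

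White preadipocytes had smaller steps. In pWAT cells 26 members were higher at day 2 than at day 0 and 6 were lower (27.1% and 25.5% of all genes, median 0.10). From day 2 to day 4, 17 were higher and 5 lower (25.1% and 22.8%, median 0.11), so that the share of members called higher, 21.8%, was under that of all genes. From day 4 to day 6, 21 were higher and 1 was lower (16.1% and 15.4%, median 0.18); without the library pWAT day 4 replicate 3 the count of changed members was 10 in place of 22. Across the whole course 51 members were higher and 2 lower (35.3% and 35.5%), at a median of 0.34. The highest group mean was at day 6 for 52 members, with no share of all genes given beside it.

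**Figure D1:**
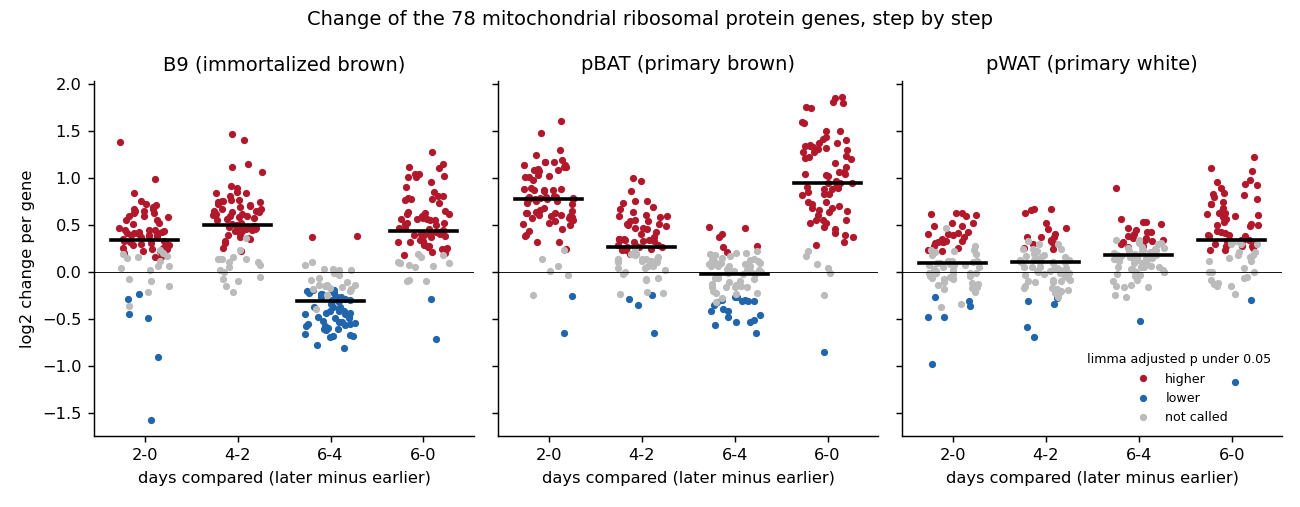
Log2 change of each of the 78 genes in 4 comparisons of days in B9, pBAT and pWAT cells, with red for higher, blue for lower and grey for no call, and a black bar at the median. In B9 the points sit below 0 from day 4 to day 6 (median -0.30) after sitting above it in the 2 earlier steps; in pBAT the first step is the largest (median 0.77); in pWAT the 3 steps are small (0.10, 0.11 and 0.18).

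The mean log2 value over the 78 genes gives the same course with little spread between libraries. In pBAT cells it was 8.69 ± 0.0367 (SD, n = 3) at day 0, 9.42 ± 0.0132 at day 2, 9.69 ± 0.0923 at day 4 and 9.62 ± 0.0483 at day 6. In B9 cells it went from 9.14 ± 0.0617 through 9.43 ± 0.00805 to 9.94 ± 0.0164 at day 4, and back to 9.61 ± 0.0235 at day 6. In pWAT cells it was 8.95 ± 0.0458, 9.06 ± 0.0215, 9.15 ± 0.0614 and 9.33 ± 0.0359. The day 6 libraries did not overlap with those of day 0 in any cell type. In bulk libraries such as these, fewer cells of a type and less RNA per cell cannot be told apart. The 3 tables were normalized separately, so levels are not compared between cell types; the change from day 0 to day 6 was larger in pBAT than in pWAT for 77 of the 78 genes and larger in B9 than in pWAT for 46, and these differences were not tested.

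Other gene groups were read in the same libraries. Cytosolic ribosomal protein genes (78 genes) rose at day 2 (49 in B9, 72 in pBAT and 41 in pWAT) and were then lower at day 6 than at day 0. They fell for 73, 76 and 78 genes, with medians of -0.66, -0.76 and -0.94. Nuclear genes for subunits of the respiratory chain (70 genes) had larger medians than the mitochondrial ribosome: 68, 69 and 68 were higher at day 6, with medians of 1.51 in B9, 1.93 in pBAT and 1.13 in pWAT. Messages encoded in the mitochondrion, the templates of this ribosome, rose by day 6 in the primary cells (13 of 13 in each, medians 1.55 in pBAT and 1.40 in pWAT). In B9, 4 rose and 2 fell of 13 (median 0.01) between days 0 and 6, but the days between differed. Mitochondrially encoded genes took 3.77-4.04% of the linear values in B9 at day 0 and 8.14-8.76% at day 2. They took 9.95-10.7% at day 4 and 4.66-6.3% at day 6. These groups were set beside the members by counts, medians and shares only.

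**Figure D2:**
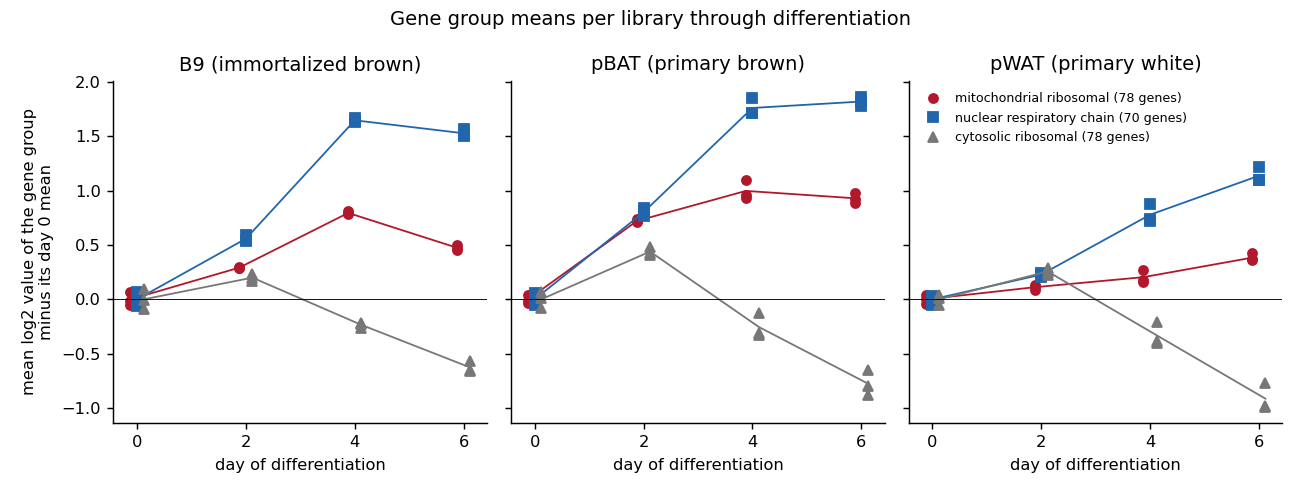
Mean log2 value of each gene group in every library, minus the group's day 0 mean, against the day of differentiation; points are libraries and lines join the means. Mitochondrial ribosomal protein genes lie between the rising nuclear respiratory chain genes and the falling cytosolic ribosomal protein genes from day 4 onward in all 3 cell types.

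Genes that work with the mitochondrial ribosome were read from lists that hold no member. Mitochondrial translation factors, which start, lengthen and end the chains, rose at day 6 in 11 (B9), 12 (pBAT) and 10 (pWAT) of 13 tested, with medians of 0.61, 1.10 and 0.74. Taco1, an activator of the translation of a cytochrome oxidase subunit, was among them at 1.21, 2.10 and 1.19, and the elongation factor Tufm at 0.57, 1.34 and 0.74. Mitochondrial aminoacyl-tRNA synthetases rose in 16, 16 and 12 of 20 (medians 0.56, 0.90 and 0.49), with 2 lower in B9. Genes for assembly of the ribosome and modification of its RNA were higher in 16, 21 and 15 of 27, and lower in 5, 0 and 3. Genes for mitochondrial DNA upkeep, transcription and RNA processing rose in 10, 15 and 8 of 16. Import and chaperone genes rose in 8, 13 and 8 of 15. Lower calls of the upkeep and import lists are not given here. Among all genes, 40.5% were higher at day 6 in B9, 38.3% in pBAT and 35.3% in pWAT. Of 5 ribosomal proteins whose symbols fall outside the naming rule (Dap3, Gadd45gip1, Chchd1, Ptcd3 and Aurkaip1), 4, 4 and 2 were higher, and Ptcd3 had the largest pBAT change at 1.34.

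Among regulators, the coactivators Ppargc1a and Ppargc1b rose strongly at day 6 (by 4.69 and 4.58 in B9, 4.09 and 4.89 in pBAT, and 3.62 and 2.50 in pWAT), as did the nuclear receptor Esrra (0.98, 2.18 and 1.29). The related coactivator Pprc1 fell in all 3 cell types (-1.81, -1.27 and -1.25). Nrf1 was lower in pBAT (-0.37) and pWAT (-0.56) and stood at 0.13 in B9 with no call. Gabpb1, the partner of GABPA, fell in all 3 (-0.67, -0.69 and -0.64), and values of Gabpa itself are not given here. Yy1 passed the test in none (0.14, 0.14 and 0.03). Whether any of these acts on the members was not tested.

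Across the 78 genes the day 6 changes followed a similar order in the 3 cell types. Pearson's r across genes was 0.84 between pBAT and pWAT (Spearman's rho 0.823), 0.705 between B9 and pBAT (0.658) and 0.64 between B9 and pWAT (0.554); genes are not independent replicates. Of the 78, 47 were higher at day 6 in all 3 cell types, 19 in exactly 2 and 7 in exactly 1. Among all genes, 40.5% were higher in B9, 38.3% in pBAT and 35.3% in pWAT. The share of all genes higher in more than 1 cell type is not given, so these counts have no background. The 5 members that rose in none of the cell types were Mrpl23, Mrpl33, Mrpl52, Mrpl54 and Mrps25. Mrpl23 had the lowest mean of the members in each cell type (5.27 in B9, 5.79 in pBAT and 5.89 in pWAT). Its pseudogene Mrpl23-ps1, left out of the members, was higher at day 6 in B9 (0.68) and pBAT (0.32) and lower in pWAT (-0.30). Whether reads were shared between Mrpl23 and Mrpl23-ps1 was not tested. An exon of Mrps25 overlaps one of Nr2c2 on the opposite strand over 3533 bases. Nr2c2 was higher at day 6 in B9 (0.24), lower in pBAT (-0.46) and had no call in pWAT (-0.23). The part of this overlap was not tested. By name, 37 of 49 large and 27 of 29 small subunit genes were higher in B9 (medians 0.41 and 0.46), 44 and 27 in pBAT (0.95 and 0.96), and 33 and 18 in pWAT (0.38 and 0.33).

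Mrpl12 belongs to the stalk of the large subunit that receives translation factors, and it had the largest rise in both primary cell types. In pBAT its log2 values were 9.77, 9.77 and 9.66 at day 0, 11.43, 11.32 and 11.26 at day 2, 12.21, 11.89 and 11.92 at day 4, and 11.53, 11.45 and 11.79 at day 6. Every later library lay above all 3 of day 0, and the day 6 libraries lay below those of day 4. The change to day 6 was 1.86 (SE 0.0956, limma adjusted p = 1.04e-10), of which 1.61 had come by day 2, and the last step was a fall of -0.42. In pWAT the gene rose in each step, by 0.43, 0.46 and 0.34, from 10.38, 10.09 and 10.10 to 11.48, 11.48 and 11.28. In B9 it rose by 0.65 and 1.06 and then fell by 0.68 from day 4 to day 6, ending 1.03 (SE 0.0554) above day 0.

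Mrpl1, part of the large subunit's other stalk, went in pBAT from 7.60, 7.23 and 7.27 at day 0 to 9.12, 9.31 and 9.21 at day 6. The groups lay far apart, and the change was 1.85 (SE 0.12); in pWAT it was 1.11 (SE 0.132) and in B9 0.91 (SE 0.102). Mrpl38 and Mrpl34 followed in pBAT with 1.81 (SE 0.0674) and 1.79 (SE 0.118). In pWAT the next largest were Mrps34 at 1.07 (SE 0.0995) and Mrpl27, a large subunit protein near the site of peptide bond formation, at 0.98 (SE 0.131). The largest rise in B9 was that of Mrps35, a small subunit protein with no bacterial counterpart. Its values ran from 8.18, 8.54 and 8.38 at day 0 to 9.50, 9.53 and 9.87 at day 6. The change was 1.27 (SE 0.159), with groups that did not overlap, and Mrpl51, Mrps31 and Mrpl55 followed at 1.14, 1.12 and 1.11.

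**Figure D3:**
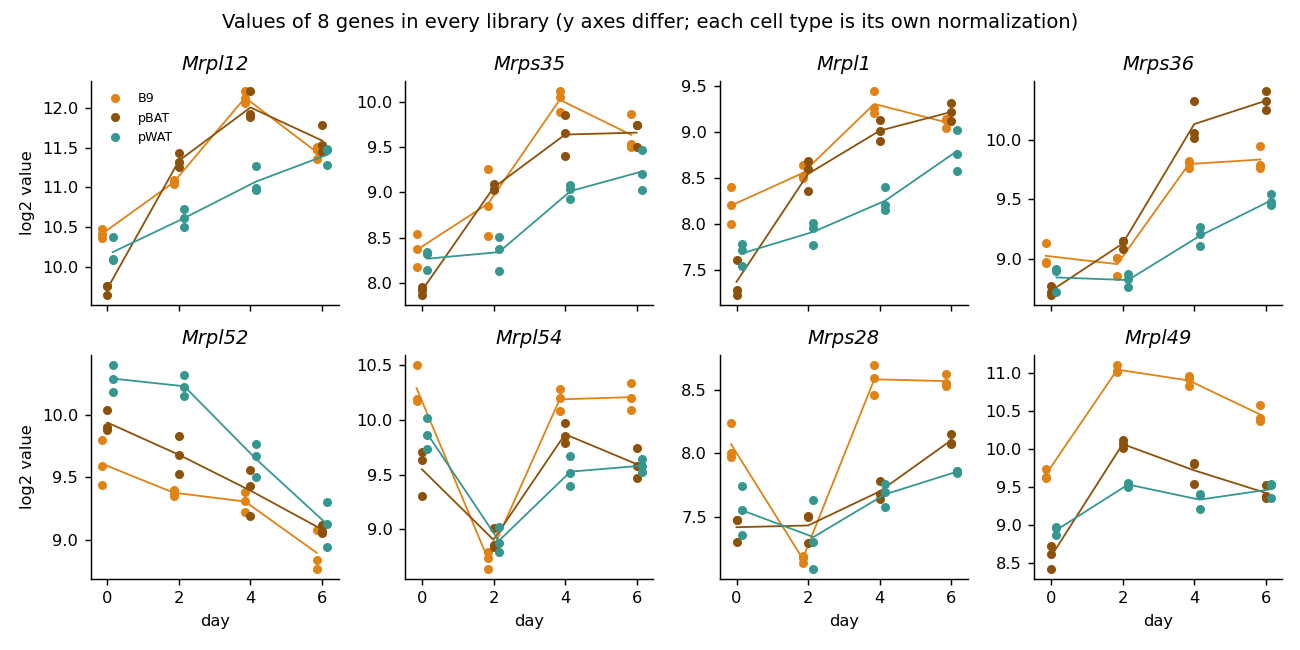
Log2 value of 8 genes in every library against the day of differentiation, with points for libraries, lines through the means, orange for B9, brown for pBAT and green for pWAT. Mrpl12, Mrps35, Mrpl1 and Mrps36 climb in all 3 cell types, Mrpl52 falls in all 3, Mrpl54 dips at day 2 in all 3, Mrps28 dips in B9, and Mrpl49 is highest at day 2 in B9 and pBAT.

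Mrps36, the member known from the 2-oxoglutarate dehydrogenase complex, rose mainly after day 2. Its change to day 2 was -0.07 in B9 and -0.02 in pWAT, with no call, and 0.40 (SE 0.0841) in pBAT. From day 2 to day 4 it rose in all 3 (0.84, 1.00 and 0.37), and at day 6 it stood 0.81 (SE 0.0744), 1.60 (SE 0.0841) and 0.65 (SE 0.0883) above day 0 in B9, pBAT and pWAT. Mrpl49, of the large subunit, had the opposite timing. In B9 it went from 9.62, 9.62 and 9.74 at day 0 to 11.02, 11.01 and 11.10 at day 2, a rise of 1.38 (SE 0.064) that was the largest of any member in that step. It then fell by 0.45 from day 4 to day 6. In pBAT it rose by 1.48 to day 2 and fell in both later steps, by 0.35 and 0.30.

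Mrpl54, a large subunit protein particular to mitochondria, was the only member lower at day 2 in all 3 cell types. Its B9 values were 10.20, 10.50 and 10.18 at day 0, 8.64, 8.79 and 8.74 at day 2, 10.08, 10.20 and 10.29 at day 4, and 10.33, 10.09 and 10.20 at day 6. The day 2 libraries stood apart from all 9 others. The dip was -1.57 (SE 0.0929, limma adjusted p = 1.63e-09), and the return by day 4 was 1.47 (SE 0.0929). In pBAT the dip was -0.64 (SE 0.106) and the return 0.97; in pWAT they were -0.98 (SE 0.101) and 0.63. At day 6 the change from day 0 was -0.08 in B9 and 0.05 in pBAT, with no call, and -0.29 in pWAT; the last lost its call without pWAT day 0 replicate 1 (adjusted p = 0.0938) or without pWAT day 6 replicate 1 (adjusted p = 0.0544).

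A dip at day 2 was also found for other members. Mrps28, of the small subunit, had B9 values of 8.0, 8.23 and 7.97 at day 0, 7.20, 7.14 and 7.18 at day 2, and 8.59, 8.46 and 8.69 at day 4. The change was -0.90 (SE 0.0968) and then 1.41 (SE 0.0968), with no overlap in either step, while the day 2 changes in pBAT (0.01) and pWAT (-0.21) had no call. Mrpl48 and Mrps15 were lower at day 2 in B9 (-0.48 and -0.28) and in pWAT (-0.48 and -0.36), and both rose from day 2 to day 4 in all 3 cell types. In pWAT the day 2 falls also included Mrpl19 at -0.48 (SE 0.133). The largest rises there were those of Mrpl36 and Mrpl50, at 0.63 each.

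Mrpl52, another large subunit protein without a bacterial counterpart, was the only member lower at day 6 in all 3 cell types. In pWAT its values were 10.39, 10.29 and 10.18 at day 0, 10.32, 10.15 and 10.22 at day 2, 9.67, 9.51 and 9.77 at day 4, and 9.13, 9.30 and 8.94 at day 6. Days 4 and 6 each lay below the day before with no overlap. The fall to day 6 was -1.16 (SE 0.104, limma adjusted p = 1.33e-07), and it was -0.85 (SE 0.0991) in pBAT and -0.71 (SE 0.0969) in B9. The other falls at day 6 were Mrpl33 in B9 (-0.28, SE 0.0902; adjusted p = 0.0528 without B9 day 6 replicate 3) and Mrpl54 in pWAT. In later steps, Mrps6 fell by 0.65 in pBAT from day 2 to day 4, and Mrps10 rose from day 4 to day 6 in pBAT (0.48) and in pWAT (0.89, SE 0.092).

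The 3 Mrps18 genes are paralogs that descend from 1 bacterial ribosomal protein. Mrps18a rose at day 6 by 0.76 in B9, 0.96 in pBAT and 0.50 in pWAT, and Mrps18b by 0.46, 1.04 and 0.28. Mrps18c rose by 0.73 in B9 and 0.75 in pBAT and had no call in pWAT (0.29, SE 0.162), though it had one without day 0 replicate 4 (adjusted p = 0.0473). The pWAT call of Mrps18b was lost without day 0 replicate 2 (adjusted p = 0.0505) or day 6 replicate 1 (adjusted p = 0.0527). Mrps12, of the decoding centre, rose in pBAT by 0.70. In B9 it rose by 0.24 (SE 0.103), but that call did not hold with median centring (adjusted p = 0.105), with quantile normalization (0.381) or without B9 day 0 replicate 1 or 4 or day 6 replicate 2 or 4 (up to 0.132). In pWAT it stood at 0.04 with no call, and below 0 with either scaling.

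Markers of other cells moved with the days as well. In pBAT, macrophage markers rose for 7 of 7 genes at day 6 (median 2.54), and their summed share of the linear values went from 0.0149-0.0160% at day 0 to 0.0700-0.0894% at day 6; in pWAT it went from 0.00909-0.00960% to 0.106-0.114%. In B9, 4 of the 7 macrophage genes were not in the table, and the summed share of the other 3 was at most 0.000904%. Genes of cycling cells fell at day 6 for 8 of 8 in each cell type, with medians of -0.70 in B9, -2.93 in pBAT and -2.76 in pWAT. The smooth muscle genes Acta2, Tagln and Cnn1 fell in all 3 cell types, whereas Myh11 fell in pBAT (-2.28) and pWAT (-1.77) and rose in B9 (4.91). The summed share of these 4 genes went from 0.348-0.390% to 0.00700-0.00840% of the linear values in B9, from 0.838-0.886% to 0.0286-0.0333% in pBAT and from 0.799-0.889% to 0.0225-0.0269% in pWAT. The part of these cells in the results was not tested.

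Inhibition of heme synthesis with SA went with a small, broad lowering of the members in pBAT cells. Of the 78 genes, 33 were lower and 5 higher with SA than with Vehicle, against 21.4% and 20% of all 12799 genes tested. The median change was -0.11 on the log2 scale (0.928-fold), and that of all genes was 0.004. The mean over the 78 genes was 9.87, 9.88, 9.88 and 9.89 in the Vehicle libraries and 9.78, 9.76, 9.78 and 9.73 with SA. The 2 groups did not overlap. Nuclear respiratory chain genes had 52 of 70 lower and 1 higher (median -0.20), and cytosolic ribosomal protein genes had 20 of 78 lower and 4 higher (median -0.05).

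Mrpl19, a large subunit protein known in bacteria to lie at the interface of the subunits, had the largest fall. Its values were 9.93, 9.78, 9.91 and 9.78 with Vehicle, 9.05, 9.23, 8.74 and 9.08 with SA, 9.50, 9.78, 9.83 and 9.83 with HA, and 9.02, 9.03, 8.90 and 8.93 with HASA. All 8 libraries given SA lay below all 8 that were not. The change with SA was -0.83 (SE 0.0878, limma adjusted p = 7.40e-07). An exon of Mrpl19 overlaps one of Gcfc2 on the opposite strand over 1962 bases (GENCODE annotation, GRCm38), and the strand setting of the quantification is not given in the sources used here; Gcfc2 stood at 0.14 with SA, with no call, and was higher by 0.23 with HASA than with HA.

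Mrps23, of the small subunit, had Vehicle values of 10.61, 10.60, 10.60 and 10.79 and SA values of 10.22, 10.21, 10.18 and 10.25. The groups did not overlap, and the change was -0.44 (SE 0.0483, limma adjusted p = 1.33e-06). Mrps16 and Mrpl55 followed with -0.32 each (SE 0.0445 and 0.0423). Mrps36 fell by 0.30 (SE 0.0615), Mrps12 by 0.23 and Mrpl12 by 0.15 (SE 0.0344). Of the 33 members lower with SA, 32 had been higher at day 6 in pBAT, where 71 of 78 were; across the 78 genes the 2 changes had a Pearson's r of -0.112 and a Spearman's rho of -0.109.

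The 5 members higher with SA changed by 0.11 to 0.15: Mrps18a, Mrpl38, Mrpl45, Mrps18b and Mrpl50. Of these, the groups of Mrpl45 alone did not overlap (10.75, 10.67, 10.67 and 10.64 with SA against 10.55, 10.52, 10.59 and 10.58 with Vehicle). The other 4 calls were each lost without at least 1 library: Mrpl38 without SA 1 (adjusted p = 0.0519), SA 2 or Vehicle 2, Mrpl50 without SA 1, SA 4, Vehicle 3 or Vehicle 4 (up to 0.0857), Mrps18a without SA 1, SA 3, Vehicle 2 or Vehicle 4 (up to 0.0908), and Mrps18b without SA 1, SA 2, SA 3, Vehicle 1, Vehicle 2 or Vehicle 3 (up to 0.11).

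With HA present, SA was again followed by lower values. HASA against HA, which uses none of the libraries of SA against Vehicle, had 47 members lower and 1 higher (22.4% and 20.4% of all genes), at a median of -0.16. Of the 33 members lower in the first comparison (90.9% of them) and the 47 lower in the second (63.8%), 30 were shared. Among all genes, 21.4% were lower in the first and 22.4% in the second. The share of all genes lower in both is not given, so the overlap has no background. Across the 78 genes the 2 changes had a Pearson's r of 0.835 and a Spearman's rho of 0.827, and 58 were below 0 in both. Mrpl19 fell by 0.77 (SE 0.0878) and Mrpl47, of the large subunit, by 0.51 (SE 0.113); Mrpl50 was the 1 higher, by 0.11, and lost its call without HA 3 (adjusted p = 0.0829) or HASA 4 (adjusted p = 0.0517).

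**Figure D4:**
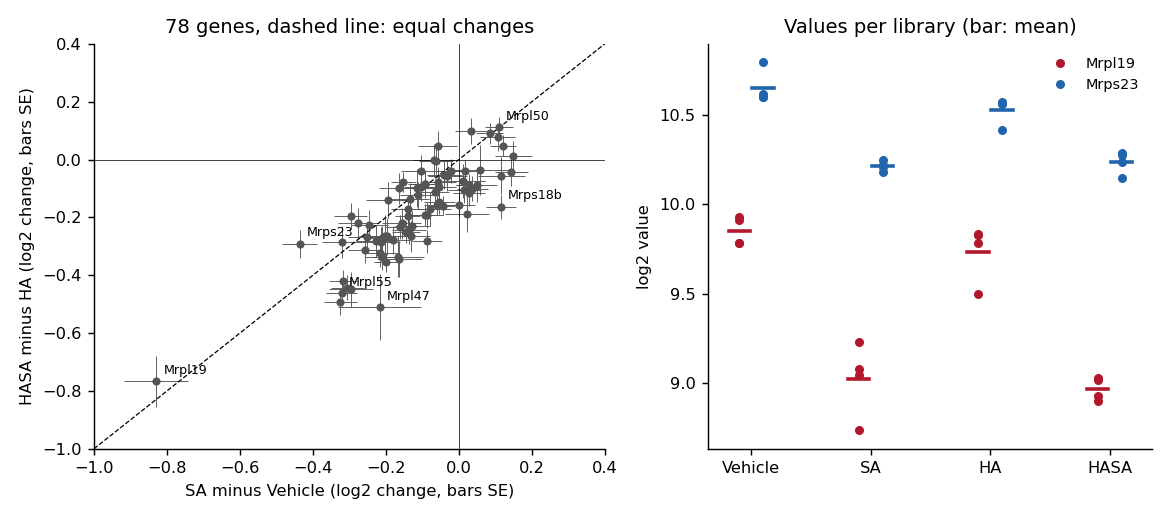
Left, log2 change with SA in the absence (x axis) and presence (y axis) of HA for the 78 genes, with SE bars and a dashed line of equal changes; right, log2 values of Mrpl19 and Mrps23 in every library of the 4 treatments, with bars at the means. Most genes lie below 0 on both axes, Mrpl19 lies farthest out (-0.83 and -0.77), and both genes are lower in the 8 libraries given SA.

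With both agents the members were also below Vehicle. HASA against Vehicle had 35 members lower and 3 higher (23% and 20.9% of all genes), at a median of -0.11, and it shares the Vehicle libraries with SA against Vehicle. The mean over the 78 genes was 9.75 ± 0.0113 (SD, n = 4) with HASA, 9.76 ± 0.0221 with SA and 9.88 ± 0.00855 with Vehicle. Mrpl19 stood 0.88 (SE 0.0878) lower than with Vehicle, and Mrps36 0.42 (SE 0.0615). The 3 higher were Mrps22, Mrpl50 and Mrpl16, by 0.24, 0.12 and 0.11; Mrpl16 lost its call without HASA 1, HASA 3 or Vehicle 1 (up to adjusted p = 0.0964), and Mrpl50 without Vehicle 4 (0.0597).

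Directly compared, HASA and SA differed for few members: 2 were higher and 7 lower (12.4% and 12.3% of all genes), at a median of -0.01. The split turned to 3 higher and 4 lower after median centring and to 3 higher and 2 lower after quantile normalization, and the count was 5, 3, 5 and 4 without SA 1, SA 3, HASA 2 and HASA 3. Mrps22, a small subunit protein, had values of 9.50, 9.55, 9.53 and 9.53 with HASA and 9.30, 9.24, 9.41 and 9.34 with SA. The groups did not overlap, and the rise was 0.20 (SE 0.0442). Mrpl54 was higher by 0.14, and Mrpl34 and Mrpl38 were the largest falls, at -0.18 and -0.15. The call of Mrpl34 was lost without SA 3 (adjusted p = 0.0531), that of Mrpl38 without SA 1, SA 2, SA 4 or HASA 3 (up to 0.0733), and that of Mrpl54 without SA 4 or any 1 HASA library (up to 0.125).

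HA by itself left most members near Vehicle, with a small shift upward. The change was above 0 for 63 of the 78, and the median of all genes was 0.0004. The mean over the 78 genes was 9.93 ± 0.0303 (SD, n = 4) with HA and 9.88 ± 0.00855 with Vehicle. These means were not tested, and the libraries of the 2 groups overlapped. Of the 78, 5 were higher and 0 lower (4.88% and 4.09% of all genes), at a median of 0.05, and 18 (23.1%) had an unadjusted limma p under 0.05, as did 23.5% of all genes. The 5 were Mrps2 (0.21, SE 0.0432), Mrpl55 (0.17, SE 0.0423), Mrps18b (0.15), Mrpl4 (0.15) and Mrpl27 (0.13). Mrps2, a small subunit protein, kept its call in every alternative run; the other 4 each lost it without at least 3 of the libraries, 1 at a time. The count was 2 without the filter on low values and 3 with only these 2 groups in the fit. It was 3, 2 and 1 without HA 1, HA 2 and HA 4, and 2, 2 and 3 without Vehicle 1, Vehicle 2 and Vehicle 3.

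The test of whether HA changed the effect of SA called 3 members lower and 0 higher, against 3.79% and 3.88% of all genes. The median difference was -0.07 for the members and -0.004 for all genes, and 20 of the 78 were above 0. Mrps18b was at 10.61, 10.62, 10.58 and 10.68 with Vehicle and at 10.75, 10.73, 10.81 and 10.67 with SA. With HA it was at 10.79, 10.71, 10.77 and 10.84, and with HASA at 10.72, 10.61, 10.56 and 10.58. SA went with a change of 0.12 (SE 0.0421) without HA and of -0.16 with HA, a difference of -0.28 (SE 0.0595, limma adjusted p = 0.00823) that kept its call in every alternative run. The differences for Mrpl4 (-0.20, adjusted p = 0.0458) and Mrpl30 (-0.16, adjusted p = 0.0484) lost their calls in most alternatives. The count of 3 fell to 1 without the filter on low values, without limma's trend, after quantile normalization, and without HA 1, HA 2, HA 4, SA 2, HASA 1, HASA 2, HASA 4, Vehicle 1 or Vehicle 2.

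Among the lists of genes that work with the mitochondrial ribosome, calls with SA went in both directions in most; of all genes tested, 41.4% were called in either direction. Translation factors had 3 higher and 3 lower of 13 (median 0.04), with Taco1 at -0.17, Oxa1l, which inserts the new chains into the inner membrane, at -0.23, and Gfm1 at 0.13. Assembly genes had 2 higher and 5 lower of 27, aminoacyl-tRNA synthetases 2 and 2 of 20, DNA upkeep and transcription genes 0 and 4 of 16, and import genes 3 and 6 of 15. Of the ribosomal proteins outside the naming rule, Chchd1 (-0.24) and Aurkaip1 (-0.16) were lower and Dap3 was higher (0.16). Messages encoded in the mitochondrion had 2 higher and 1 lower of 13 (median 0.20). Ppargc1a and Ppargc1b were lower with SA, by 0.26 and 0.30. Values of the other regulators with SA are not given here, and a link to the members was not tested.

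Markers of cell types also moved with SA. Brown adipocyte markers were lower for 5 of 5 genes (median -1.82); their summed share was 0.0497-0.0524% with Vehicle, 0.0319-0.0343% with SA, 0.0575-0.0587% with HA and 0.0279-0.0296% with HASA. Macrophage markers were lower for 6 of 7, at 0.0144-0.0151% with SA and 0.0197-0.0241% with Vehicle, but at 0.0202-0.0233% with HASA and 0.0204-0.0240% with HA. Preadipocyte and fibroblast markers were lower for 4 of 4, cycling genes for 6 of 8 and smooth muscle genes for 3 of 4, while adipocyte markers were higher for 3 of 6 and lower for 1. The part of these marker groups in the result was not tested.

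In brown fat of mice, no member passed the test between BAKO and WT. The counts were 0 higher and 0 lower by limma, where 0.0519% and 0.0593% of all 13497 genes were called, and 2 members (2.56%) had an unadjusted p under 0.05, against 8.69% of all genes. The mean over the 78 genes was 10.46, 10.42, 10.25 and 10.25 in BAKO and 10.43, 10.40, 10.32 and 10.35 in WT. The groups overlapped, and the BAKO animals spread more widely. The median change was -0.04, and the smallest adjusted p was 0.462. The 95% confidence interval reached a median of 0.205 to either side of the change and lay within 0.5 of 0 for 77 of the 78 genes, all but Mrpl23.

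Mrpl18, of the large subunit, had the largest negative change, with 11.16, 11.12, 10.93 and 10.92 in BAKO and 11.27, 11.26, 11.21 and 11.23 in WT. The groups did not overlap, and the change was -0.21 (SE 0.0768, limma adjusted p = 0.462). Mrps26, at -0.11, was the other member whose groups did not overlap, and among all genes 5.59% had groups that did not. Mrpl23 was at 7.84, 7.41, 7.76 and 7.32 in BAKO and 7.19, 7.18, 7.28 and 7.46 in WT. These groups overlapped; the change was 0.30 (95% CI 0.00 to 0.60, adjusted p = 0.566). Genes with large changes in the cultures did not pass here: Mrpl12 was at -0.04 (SE 0.105), Mrps36 at -0.07 (SE 0.0842) and Mrps18b at -0.02 (SE 0.0923).

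**Figure D5:**
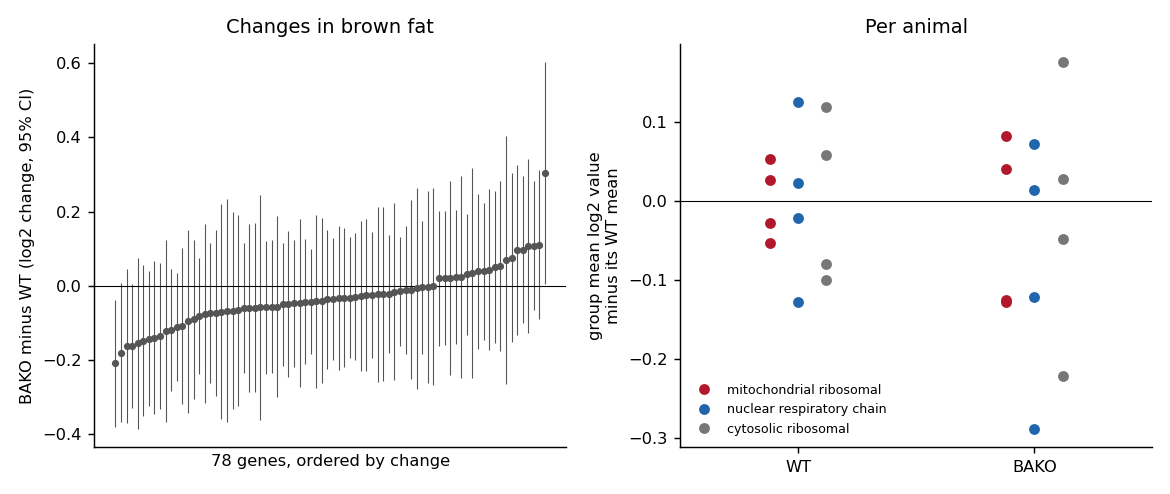
Left, log2 change between BAKO and WT brown fat for the 78 genes in rising order, with 95% confidence intervals; right, mean log2 value of 3 gene groups in each animal, minus the WT mean of the group. The intervals of all but 2 genes include 0, and the BAKO and WT animals overlap in each gene group.

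BAKO 3 and BAKO 5 had the lowest means of the members. The skeletal muscle markers took 0.344% of the linear values in BAKO 3 and 0.00475% in BAKO 5. They took 0.00109% to 0.00115% in the other BAKO animals and 0.00115% to 0.0170% in WT, a range that holds BAKO 5. Of these markers, 0 of 8 passed the test (limma, median change 1.19). Adipocyte markers had no call, with Adipoq (-0.53), Cidec (-0.41), Plin1 (-0.37) and Fabp4 (-0.29) below WT and Lep (0.48) and Pparg (0.07) above. Macrophage markers had no call, with changes from 0.12 to 0.52. The part of these cells in the result was not tested. The respiratory chain, cytosolic ribosome and mitochondrial translation lists had 0 genes called as well, with medians of -0.10, -0.01 and -0.04.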

How the data were processed

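RNA was sequenced in 60 bulk libraries. Per the submitters' processing notes, GRCm39 was the build, and kallisto and DESeq2 were among the tools; versions are not stated. Each of the 5 deposited tables holds values that the authors put on a log2 scale and normalized within that table; the file names call them raw counts, and the kind of transformation is not stated. Tests were made within a table. Symbols were matched for 99.63% to 99.77% of identifiers.

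Genes with a highest group mean of at least 4 were fitted with limma 3.58.1 (R 4.3.3, trend, 1 mean per group over all libraries of the table), with Benjamini-Hochberg adjustment over all tested genes and calls under 0.05. The procedure was run on simulated data with known changes and independent noise for each gene. Such data cannot show how calls behave for genes that move together. Members and lists were chosen with earlier results of these data known. For the main comparisons, the named members were up to 4 rises and 4 falls among calls without overlap, for others the 2 largest each way, plus Mrps36, Mrpl12, Mrps12 and the Mrps18 genes and directions with 5 or fewer calls. Other values, such as those of Mrpl49 and Mrps28 beyond their steps, Mrpl18, Mrpl23 and Mrps26, and the printed promoters, were chosen after they were seen. An exon of 33 members overlaps one of another gene, on the same strand for 8.

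Alternatives were no filter or a stricter one, only the groups compared, a replicate block, no trend, median centring, quantile normalization and each library left out.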

Additional observations from a re-analysis of the deposited data

Results flagged for a closer look

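Members named in the 2 experiments with 4 libraries per group were examined for a library far from its 3 companions, in 106 groups, and 5 were found; chance flags about 1 in 20 groups. Mrpl19 was at 9.50 in HA 1 and at 9.78, 9.83 and 9.83 in the other HA libraries. In HA 3, Mrpl4 was at 10.70 (others 10.79 to 10.80) and Mrps23 at 10.41 (others 10.56 to 10.57). Mrpl47 was at 8.84 in SA 4, against 9.24 to 9.29. Mrps23 was at 10.79 in Vehicle 4, against 10.60 to 10.61.

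The effect of SA differed with HA, by the interaction test in limma, for Mrps18b (-0.28), Mrpl4 (-0.20) and Mrpl30 (-0.16). These are 3.85% of the members, near the 3.79% of all genes called lower. The calls of Mrpl4 and Mrpl30 were lost in most alternatives. The call of Mrpl4 held without HA 3 and was lost without HA 1, HA 2 or HA 4.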

How the results depend on the processing

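Over 19 comparisons, 241 of 268 alternative counts of called members were within 1.5 times the reported count, and no called member changed direction in any alternative. Counts moved for HA against Vehicle (5; 2 without the filter, 3 with only the groups compared), HASA against SA (9; 5 without the filter and with quantile normalization) and the interaction (3; 1 without the filter, without the trend or with quantile normalization). With 1 library left out, the counts ran from 10 to 20 for pWAT day 6 against day 4, 1 to 5 for HA against Vehicle, 3 to 7 for HASA against SA and 1 to 3 for the interaction. The cause was not tested.

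Of 1529 alternative values of 110 named changes, 136 lost and 1 gained a call, and 19 changed sign, none of them called. Mrps12 in pWAT day 6 against day 0 (0.04) was at -0.013 with median centring, at -0.015 with quantile normalization and from -0.087 to 0.147 with 1 library left out; Mrps18c with SA (0.01) ran from -0.016 to 0.046. Between BAKO and WT, quantile normalization gave 0.023 for Mrpl12 and 0.011 for Mrps18a. With 1 animal left out, Mrpl12 ran from -0.126 to 0.043, Mrps12 from -0.124 to 0.026, Mrps18a from -0.048 to 0.044, Mrps18b from -0.087 to 0.016 and Mrps18c from -0.164 to 0.030. Without BAKO 3 and BAKO 5 together, the animals with the lowest means of the members, so that an upward shift follows from the choice, Mrpl12 was at 0.119, Mrps12 at 0.103, Mrps18b at 0.0079 and Mrps18c at 0.177.

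Same-numbered libraries did not pair in B9 or pBAT, where their deviations correlated by over 0.1 in 0 of 14 and 0 of 13 pairs. The count was 2 of 13 in pWAT, 7 of 24 in the treatments and 2 of 3 in tissue. In tissue the median correlation was 0.317 for the same number and -0.107 for different numbers. With only 3 such pairs, whether the tissue libraries were paired cannot be decided. With the replicate number as a block, 37 members in place of 38 changed with SA, and Mrps18b in tissue stood at 0.041. Depth could not be examined.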
